A study of Mus musculus with 16 samples.

Results

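The genes that encode the subunits of the proteasome were followed in mouse skeletal muscle lacking a subunit of calcineurin. Members were the genes whose probe sets carry exactly 1 symbol, and that symbol is Psma, Psmb, Psmc or Psmd followed by digits. Each gene was represented by the probe set with the highest mean over all 16 arrays. The rule gave 39 genes of 19938 with a single symbol on the array, 19 of the core particle and 20 with regulatory-particle names. Low values were filtered at a mean log2 value of 6.18, and 37 members passed. Psma8, an alpha subunit known from the testis, averaged 5.57 over all arrays, and Psmb11, a catalytic subunit known from the thymus, averaged 6.06. Both lay below the filter and entered no test. Psma3, Psma5, Psmb3, Psmc1 and Psmd2 have several probe sets, and as the chosen one may read a near-identical copy of the gene, their values are uncertain.

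RNA came from whole gastrocnemius, a calf muscle. All mice were male with a C57Bl6J background, and 1 Affymetrix Mouse Gene 1.0 array was made per mouse. All animals had been fed a diet with 40% of its calories as butter fat for at least 8 weeks. The Ppp3r1 line compared 4 knockout (KO) mice, which lack the regulatory subunit of calcineurin in skeletal muscle through Cre recombinase under Mlc1f (the Myl1 gene), with 4 wild-type (WT) littermates. The labels do not say whether those littermates carry Cre. The Ppp3cb line compared 4 arrays labelled KO, from mice lacking the beta catalytic subunit in the whole body, with 4 arrays labelled WT, from littermates. Ages are not given. Values are log2 intensities after robust multi-array averaging (RMA), so a difference of 1 is 2-fold. They compare arrays for 1 probe set, not 1 gene with another, and the number of arrays limits their precision. In whole muscle, fewer cells of a type and less RNA per cell cannot be told apart.

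The targeted genes were read first. Ppp3r1 was 9.28, 9.25, 8.98 and 9.19 in KO animals 331, 335, 414 and 416, against 9.57, 9.36, 9.39 and 9.64 in WT animals 334, 336, 413 and 415, so the groups did not overlap. The separation was narrow, with a highest KO value of 9.28 and a lowest WT value of 9.36. Groups were separated downward in 1.71% of all tested probe sets, and Ppp3r1 was not called (adjusted p under 0.05 by limma). Ppp3cb went against the labels of the other line. It was 10.48, 10.22, 11.74 and 11.61 in the arrays labelled KO 18, 5, 6 and 9, against 11.80, 11.67, 10.37 and 10.23 in those labelled WT 12, 2, 23 and 24. That line is therefore given both by label and by Ppp3cb value, with arrays 18, 5, 23 and 24 below 11 and arrays 6, 9, 12 and 2 above it. The second grouping is defined from the data and is not the study's. KO animal 414 of the Ppp3r1 line stood apart for the members, so counts over the members and the gene lists are also given without it. The 12 muscle fibre markers all lay at or above percentile 88.3 of their array, and arrays within a group correlated at 0.965 to 0.992 over all probe sets.

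The proteasome is the protease that degrades proteins tagged with ubiquitin. Its barrel-shaped core particle has outer rings of alpha subunits and inner rings of beta subunits, of which Psmb5, Psmb6 and Psmb7 are catalytic; interferon-gamma induces Psmb8, Psmb9 and Psmb10, which take their places in the immunoproteasome. The regulatory particle caps the barrel, with a base of Psmc ATPases that unfold substrates and a lid that removes ubiquitin, and in wasting muscle its substrates include proteins tagged by the ligases Trim63 (MuRF1) and Fbxo32 (atrogin-1).

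Promoters of 5 members are shown because 3 of them (Psma7, Psmd4 and Psmc6) belong to the subunits that were high together in 1 animal, while Psmb8 and Psmb9 belong to those that were not. Psma7 and Psmd4 stood highest in that animal above the other KO arrays. Psmc6 was picked because its promoter holds the first of the motifs named below, so its match reflects the choice. Each promoter is the RefSeq sequence on GRCm38.p6 from 250 bases before to 50 bases after the gene's start, 5′ to 3′ on the gene's strand, with capitals for 2 motifs on either strand. The motifs are TGACNNNGC, the core of the antioxidant response element read by the NRF factors, and CCAAT, which reads ATTGG on the opposite strand and is bound by NF-Y; none of the marked matches overlaps another.
Psma7, chr2:180042415-180042714, minus strand: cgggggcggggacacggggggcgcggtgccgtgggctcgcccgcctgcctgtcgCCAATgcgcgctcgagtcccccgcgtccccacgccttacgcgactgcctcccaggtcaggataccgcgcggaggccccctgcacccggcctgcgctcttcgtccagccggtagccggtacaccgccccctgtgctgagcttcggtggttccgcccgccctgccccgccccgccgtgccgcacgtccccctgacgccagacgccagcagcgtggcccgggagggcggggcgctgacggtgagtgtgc
Psmd4, chr3:95042565-95042864, minus strand: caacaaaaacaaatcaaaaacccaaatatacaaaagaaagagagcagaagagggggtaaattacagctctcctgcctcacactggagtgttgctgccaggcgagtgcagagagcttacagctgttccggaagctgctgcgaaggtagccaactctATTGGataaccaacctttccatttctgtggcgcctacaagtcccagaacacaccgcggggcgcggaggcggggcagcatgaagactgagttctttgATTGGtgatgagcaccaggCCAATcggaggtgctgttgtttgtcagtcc
Psmc6, chr14:45329574-45329873, plus strand: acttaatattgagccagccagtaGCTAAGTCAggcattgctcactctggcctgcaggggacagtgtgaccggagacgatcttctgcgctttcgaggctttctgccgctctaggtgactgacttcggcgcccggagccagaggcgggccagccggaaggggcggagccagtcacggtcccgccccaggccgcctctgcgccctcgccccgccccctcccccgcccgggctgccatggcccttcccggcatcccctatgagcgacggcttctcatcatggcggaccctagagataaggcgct
Psmb8, chr17:34197945-34198244, plus strand: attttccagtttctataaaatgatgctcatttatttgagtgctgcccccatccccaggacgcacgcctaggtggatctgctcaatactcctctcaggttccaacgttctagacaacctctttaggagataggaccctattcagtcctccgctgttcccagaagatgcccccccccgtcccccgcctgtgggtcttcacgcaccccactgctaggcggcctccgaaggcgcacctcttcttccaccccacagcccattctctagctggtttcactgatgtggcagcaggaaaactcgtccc
Psmb9, chr17:34187281-34187580, minus strand: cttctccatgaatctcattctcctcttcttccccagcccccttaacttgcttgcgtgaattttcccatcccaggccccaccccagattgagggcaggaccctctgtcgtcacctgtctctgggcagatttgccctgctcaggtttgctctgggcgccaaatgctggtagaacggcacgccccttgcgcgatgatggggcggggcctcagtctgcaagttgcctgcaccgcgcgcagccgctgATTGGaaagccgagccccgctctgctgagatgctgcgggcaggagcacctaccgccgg

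A promoter sequence was found for 32 of the 39 members, 34 windows in all. TGACNNNGC was in 5 of the 34 (14.7%), those of Psmb5, Psmb6, Psmc6, Psmd12 and Psmd9, against 12.4% of all 32851 promoters of that length. CCAAT was in 13 of the 34 (38.2%), against 37.4% of all promoters. A match is a description of the letters and not a site. The shares among members were near those of all promoters.

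In the Ppp3r1 line no proteasome gene was called between KO and WT muscle (adjusted p under 0.05 by limma), where 0.00656% of tested probe sets were, 1 of 15252. Of the 37 tested members 33 had a higher mean in KO muscle, as did 54.2% of all tested probe sets, and the median log2 difference of the members was 0.14. KO animal 414 stood apart from the other 3: it was the highest of the 8 arrays of the line in 31 of the 37 members, or 83.8%, against 19.1% of all tested probe sets. Without it, 15 of the 37 members had a log2 difference above 0, against 50.7% of all tested probe sets, and the median was -0.02.

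Animal 414 was the highest array for all 14 core subunits that are not immune subunits and for all 17 regulatory subunits that are not assembly chaperones. It was the highest for none of the 3 immune subunits and none of the 3 chaperones. The members stood a median of 0.59 above the mean of the other 3 KO animals, where the median over all tested probe sets was 0.01. A gap over 0.5 was seen in 24 of the 37 members and in 3.66% of all tested probe sets. Its array correlated at 0.981 to 0.988 with the other KO arrays, which correlated at 0.965 to 0.985 with each other.

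**Figure D1:**
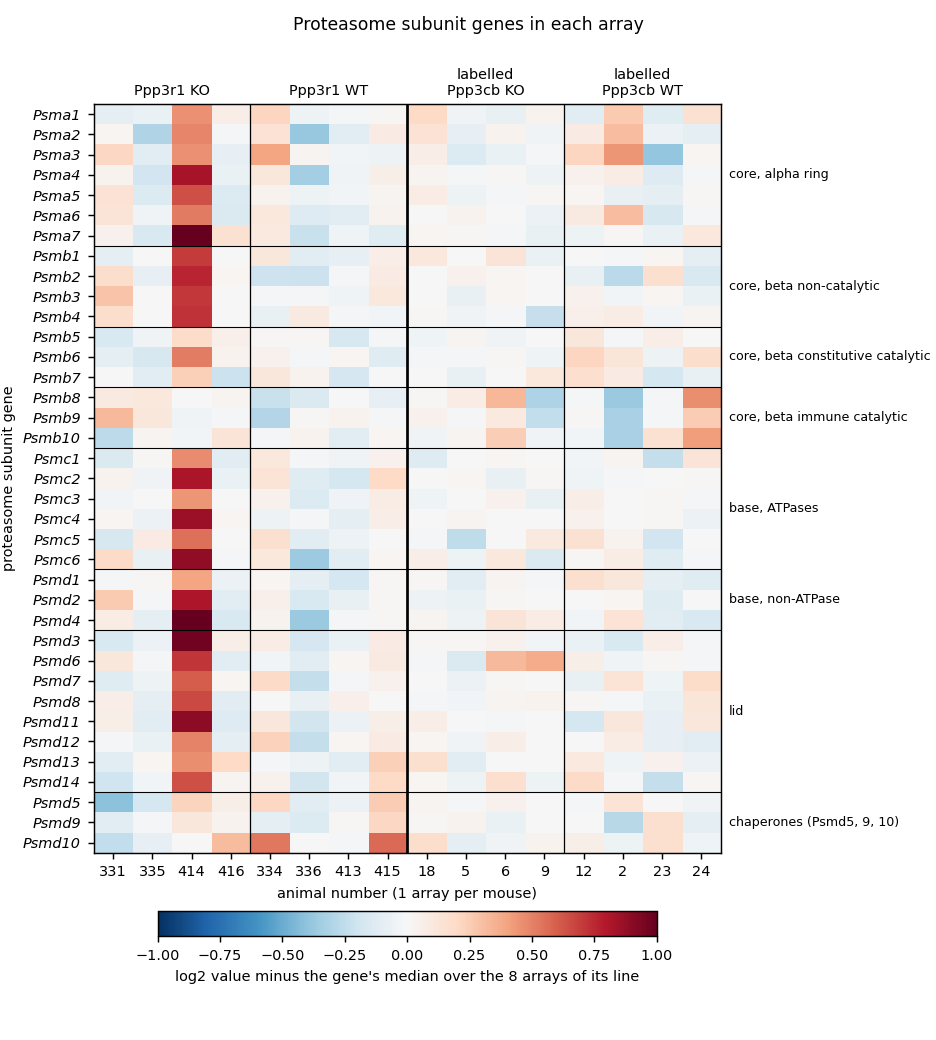
Log2 value of each tested proteasome gene (rows, by role) in each array (columns, 1 per mouse) minus the gene's median over the 8 arrays of its line, on a colour scale from -1 to 1. The column of Ppp3r1 KO animal 414 is red for the alpha, non-catalytic beta, base and lid subunits and Psmb6. It is light red for Psmb5, Psmb7 and Psmd5 and pale for Psmb8, Psmb9, Psmb10, Psmd9 and Psmd10.

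Among the alpha subunits, which form the gated outer rings, the gap of animal 414 over the other KO animals ran from 0.45 (Psma3) to 1.15 (Psma7), with a median of 0.59 over 7 genes. Psma7 was 8.70, 8.50, 9.82 and 8.81 in KO animals 331, 335, 414 and 416, against 8.76, 8.43, 8.61 and 8.53 in WT animals 334, 336, 413 and 415. The value of 9.82 lay 1.01 above the next highest array, and the other KO animals lay inside or just above the WT range. Psma3 was 10.93, 10.61, 11.18 and 10.64 in the KO animals, against 11.11, 10.74, 10.70 and 10.67 in WT. There animal 414 exceeded the highest WT animal by 0.07, the smallest such margin among the 31 genes.

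The non-catalytic beta subunits Psmb1 to Psmb4, which complete the inner rings, had gaps of 0.61 to 0.73. Psmb2 was 11.72, 11.46, 12.30 and 11.56 in KO animals, against 11.33, 11.33, 11.52 and 11.62 in WT. Psmb3 was 13.29, 12.99, 13.71 and 13.01 in KO animals, against 12.99, 12.99, 12.95 and 13.10 in WT. Animal 331 was second highest for both, and the other KO animals lay among the WT values.

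Psmb4 was 11.57, 11.39, 12.12 and 11.41 in KO animals, against 11.33, 11.49, 11.39 and 11.37 in WT. Its 3 KO values other than that of animal 414 ran from 11.39 to 11.57 and overlapped the WT range.

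The constitutive catalytic subunits had smaller gaps, with a median of 0.34. Psmb6, which carries the caspase-like site, was 9.98, 9.91, 10.59 and 10.11 in KO animals, against 10.12, 10.06, 10.10 and 9.96 in WT. Psmb5, the chymotrypsin-like subunit, was 12.10, 12.22, 12.44 and 12.30 in KO animals, against 12.27, 12.27, 12.10 and 12.25 in WT. Psmb7, the trypsin-like subunit, was 11.08, 10.97, 11.31 and 10.87 in KO animals, against 11.19, 11.12, 10.91 and 11.08 in WT. Animal 414 was the highest for each of these genes, by 0.47 for Psmb6, 0.14 for Psmb5 and 0.12 for Psmb7.

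The immune catalytic subunits were not high in animal 414, where they stood between -0.18 and 0.01 from the mean of the other KO animals. Psmb8 (LMP7) was 7.09, 7.11, 7.003 and 7.03 in KO animals, against 6.78, 6.86, 6.995 and 6.91 in WT. Psmb9 (LMP2) was 8.92, 8.71, 8.56 and 8.59 in KO animals, against 8.31, 8.61, 8.64 and 8.58 in WT. Psmb10 (MECL-1) was 7.70, 7.99, 7.94 and 8.09 in KO animals, against 7.94, 8.00, 7.86 and 7.98 in WT.

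Psmb8 was the only member whose KO and WT arrays did not overlap, the lowest KO animal being 414 and the highest WT animal 413. Groups were separated upward in 3.15% and downward in 1.71% of all tested probe sets. Its log2 difference was 0.17 (SE 0.14, adjusted p = 0.62 by limma), which is not called, and 0.19 without animal 414. All 6 tested lymphocyte markers had a higher KO mean, with and without animal 414. Their summed linear signal was 1140 in KO animal 331, 731.1 in 335, 739.2 in 414 and 708.5 in 416, against 661.3 to 790.3 in WT animals. Animal 331 alone lay above the WT range. The smallest p among them was that of Cd8a, a marker of cytotoxic T cells, at 0.30 (SE 0.11, adjusted p = 0.366). The other 8 lymphocyte markers on the array lay below the filter. Macrophage markers summed to 1974 to 2224 in KO and 1694 to 2199 in WT animals, with 12 of 14 tested markers higher in KO, and 9 of 14 without animal 414. The part of either cell type in the Psmb8 values was not tested.

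In the base of the regulatory particle the ATPase genes Psmc1 to Psmc6 had gaps of 0.45 to 0.86 in animal 414. Psmc6 was 9.78, 9.52, 10.48 and 9.57 in KO animals, against 9.69, 9.22, 9.48 and 9.61 in WT. Psmc4 was 10.03, 9.95, 10.86 and 10.02 in KO animals, against 9.96, 9.99, 9.91 and 10.08 in WT. In both the other 3 KO animals overlapped the WT range.

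The non-ATPase base subunits include Psmd1 and Psmd2, the large scaffolds, and Psmd4, a ubiquitin receptor. Psmd4 was 9.65, 9.49, 10.59 and 9.43 in KO animals, against 9.62, 9.21, 9.57 and 9.59 in WT. Psmd2 was 12.02, 11.74, 12.57 and 11.64 in KO animals, against 11.81, 11.60, 11.68 and 11.77 in WT. Psmd1 was 11.94, 11.96, 12.34 and 11.88 in KO animals, against 11.96, 11.85, 11.77 and 11.95 in WT. The order of the gaps was Psmd4 (1.07), Psmd2 (0.77) and Psmd1 (0.41).

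The 8 lid genes had gaps of 0.43 to 1.02 with a median of 0.71. Psmd3 was 9.55, 9.64, 10.67 and 9.76 in KO animals, against 9.78, 9.53, 9.63 and 9.78 in WT. Psmd6 was 10.65, 10.51, 11.25 and 10.42 in KO animals, against 10.51, 10.43, 10.56 and 10.62 in WT. Psmd14, the lid's deubiquitinase, had a gap of 0.71. Psmd11, described in human embryonic stem cells as a determinant of proteasome assembly, had one of 0.96.

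The chaperones Psmd5, Psmd9 and Psmd10 assemble the base and leave the finished particle. Psmd10 (gankyrin) was 7.61, 7.78, 7.86 and 8.18 in KO animals, against 8.39, 7.86, 7.85 and 8.43 in WT. Its WT values formed a low and a high pair, and animal 414 lay 0.57 below the highest. Psmd5 was 7.76, 8.00, 8.40 and 8.24 in KO animals, against 8.38, 8.07, 8.12 and 8.43 in WT, where the groups overlap. Its difference was -0.15, and -0.25 without animal 414, where it was the only member with an unadjusted p under 0.05 (adjusted p = 0.665 by limma).

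**Figure D2:**
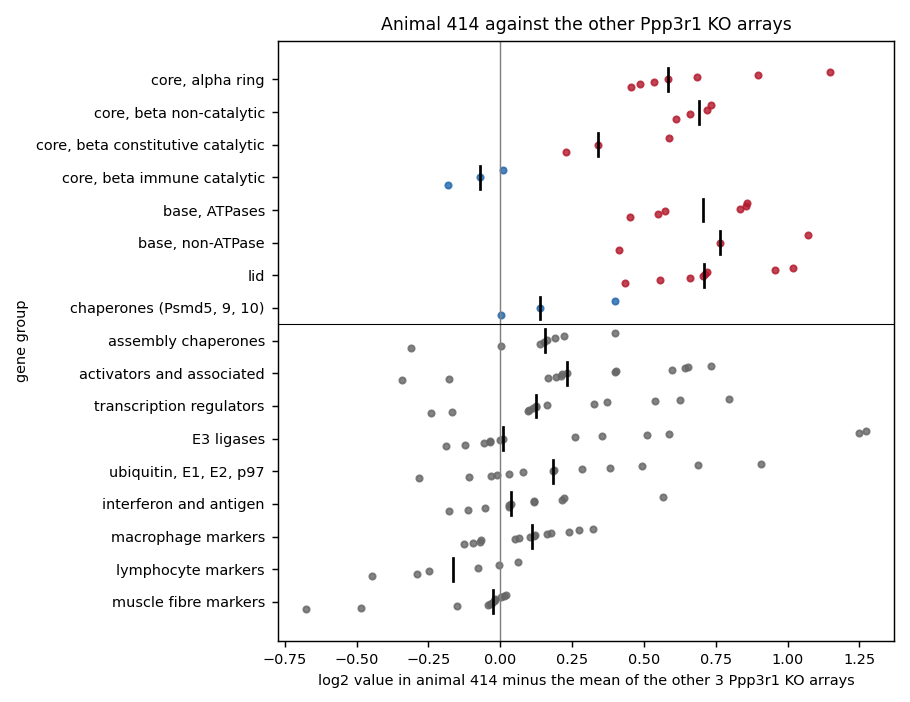
Log2 value in Ppp3r1 KO animal 414 minus the mean of the other 3 KO arrays, 1 point per tested gene, with black bars for group medians; proteasome genes lie above the horizontal line (blue for immune subunits and chaperones, red for the rest) and other gene lists, in grey, below it. The red points lie at 0.23 or more, the immune subunits lie at or below 0.01, and Trim63 and Fbxo32 are the points near 1.25 among the E3 ligases.

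The core and the regulatory particle overlapped in the gaps of animal 414. The median gap was 0.71 over the 17 regulatory subunits without chaperones and 0.60 over the 14 core subunits without immune subunits, with ranges of 0.41 to 1.07 and 0.23 to 1.15. In the KO minus WT comparison both medians were 0.14. Without animal 414 they were -0.02 and -0.03, with 8 of 17 and 5 of 14 genes above 0. The spread of the members was wide with animal 414: the median SD of the members was 0.33 in KO muscle (n = 4), 0.11 in KO muscle without that animal (n = 3) and 0.12 in WT muscle (n = 4), where all tested probe sets had median SDs of 0.16 in KO and 0.14 in WT.

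Some other genes of the pathway were high in the same animal. Trim63 was 10.54, 9.97, 11.49 and 10.15 in KO animals 331, 335, 414 and 416, against 10.30, 10.04, 10.22 and 10.03 in WT animals 334, 336, 413 and 415. Fbxo32 was 11.77, 11.09, 12.56 and 11.08 in KO animals, against 11.48, 11.06, 11.26 and 11.32 in WT. The gaps of animal 414 were 1.27 and 1.25, both above that of any proteasome gene. Neither gene was called between KO and WT (adjusted p = 0.525 and 0.61), and the differences of 0.39 and 0.35 became 0.07 and 0.04 without animal 414.

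Nploc4, a cofactor of the p97 segregase that hands ubiquitinated proteins to the proteasome, was 12.00, 11.67, 12.70 and 11.71 in KO animals, against 11.64, 11.43, 11.50 and 11.61 in WT. Its groups did not overlap, with a log2 difference of 0.48 (SE 0.15, adjusted p = 0.363), and 0.25 without animal 414. Foxo1, a transcription factor of muscle wasting, was 8.76, 8.36, 9.20 and 8.59 in KO animals, against 8.41, 8.39, 8.27 and 8.55 in WT. Foxo3, its relative, was 8.20, 8.04, 8.54 and 8.40 in KO animals, against 7.92, 7.80, 7.98 and 8.14 in WT. The NRF factors differed in animal 414. Nfe2l2 (NRF2), which drives antioxidant genes, was 9.42, 9.74, 10.49 and 9.91 in KO animals, against 9.97, 9.46, 9.71 and 10.04 in WT. Its gap of 0.80 in animal 414 was the largest of the 13 tested regulators, and its KO minus WT difference was 0.09, and -0.11 without that animal. Nfe2l1 (NRF1), which drives proteasome gene transcription when the proteasome is inhibited, was 11.12, 11.46, 11.46 and 11.43 in KO animals, against 11.54, 11.44, 11.36 and 11.31 in WT, so animal 414 was not its highest array. These are RNA values, and the part of either factor in the subunit values was not tested.

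Animal 414 was the highest array for 8 of 13 activators and associated proteins, 8 of 13 regulators of proteasome genes, 8 of 13 ubiquitin, E1, E2 and p97 genes, 5 of 13 muscle E3 ligases and 2 of 8 assembly chaperones. For 11 interferon and antigen presentation genes the count was 3, for 14 macrophage markers 5, for 6 lymphocyte markers 0 and for 12 muscle fibre markers 0. These lists are to be read against the 19.1% of all tested probe sets given above. The median gap over the other KO animals was 0.23 for activators and associated proteins and 0.13 for regulators. It was 0.18 for ubiquitin, E1, E2 and p97 genes, 0.01 for E3 ligases and 0.16 for assembly chaperones, against 0.59 for the members.

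The probe set called in the Ppp3r1 comparison was that of Myh2, a myosin of fast oxidative fibres. Differences above 0 were seen in 89.2% of members and 54.2% of tested probe sets, with medians of 0.14 and 0.02. Without animal 414 the shares were 40.5% and 50.7%. The 5 members with the smallest p were Psmb3 (0.24, SE 0.11), Psmb2 (0.31, SE 0.14), Psmc6 (0.34, SE 0.16), Psmd2 (0.28, SE 0.14) and Psmd10 (-0.28, SE 0.14), with adjusted p from 0.416 to 0.443. An unadjusted p under 0.05 was reached by Psmb3 and Psmb2 alone, both higher, against 6.37% of tested probe sets in that direction and 11.7% in either. Without animal 414 the differences were 0.09 for Psmb3, 0.13 for Psmb2, 0.12 for Psmc6 and 0.08 for Psmd2, while that of Psmd10 was -0.28.

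**Figure D3:**
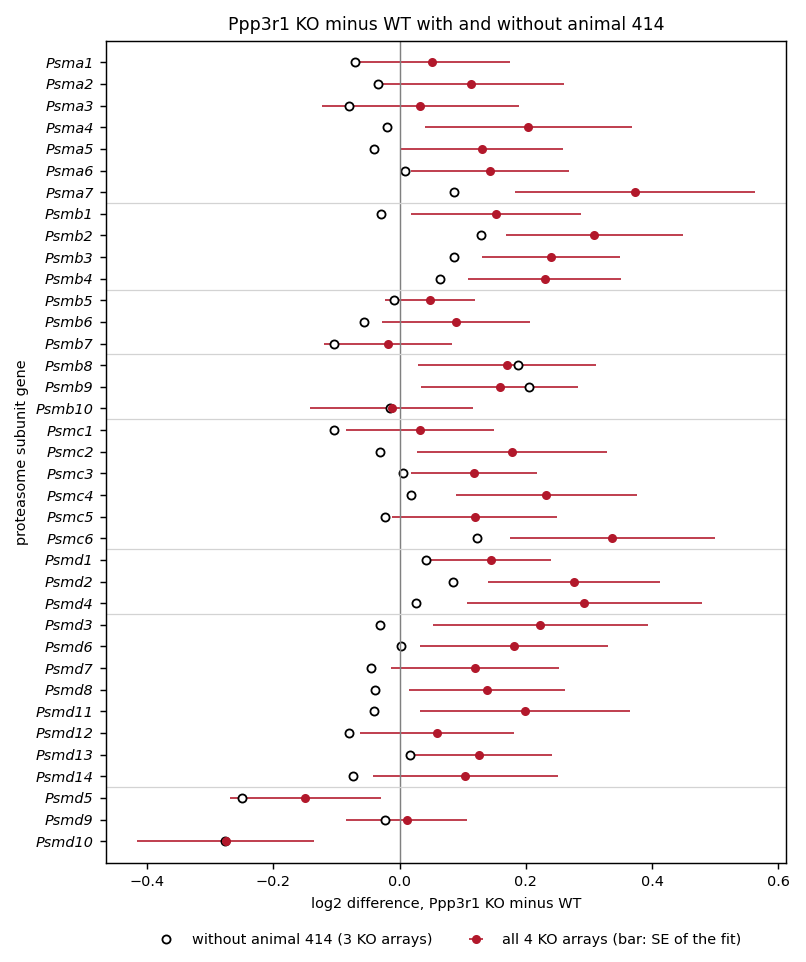
Log2 difference, Ppp3r1 KO minus WT, of each tested proteasome gene with all 4 KO arrays (filled, bar for the standard error of the fit) and without animal 414 (open). With all arrays 33 of 37 points lie right of 0, and 15 of 37 do so without animal 414, while Psmb8, Psmb9, Psmb10, Psmd9 and Psmd10 move least.

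Among the pathway lists in the Ppp3r1 line no gene was called. Differences were above 0 in 5 of 8 assembly chaperones, 6 of 13 activators and associated proteins, 7 of 13 regulators, 6 of 13 E3 ligases, 4 of 13 ubiquitin, E1, E2 and p97 genes and 5 of 11 interferon genes. Without animal 414 the counts were 2 of 8, 5 of 13, 5 of 13, 5 of 13, 4 of 13 and 5 of 11 in the same order of lists. The median turned to -0.02 without that animal, against 0.02 with it, in the assembly list, and to -0.06, against 0.07, in the regulators. The assembly list shares Psmd5, Psmd9 and Psmd10 with the members, and Pomp, the chaperone that matures the core particle, had a difference of 0.34 (SE 0.18, adjusted p = 0.462), and of 0.28 without animal 414. Psmf1, an inhibitor of the core particle, had one of 0.27 (SE 0.15, adjusted p = 0.48), and of 0.12 without animal 414.

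In the Ppp3cb line by label the proteasome genes were nearly level between the groups. Of the 37 tested members 17 had a higher mean in arrays labelled KO, where 55.9% of all tested probe sets did, and the median log2 difference was -0.003. With each array centred on its median 9 had a higher mean, a setting for which the share of all tested probe sets is not given here. No member was called, and none of the 15252 tested probe sets was (0%), with 264 of them (1.73%) at an unadjusted p under 0.05. No member reached that, and for none did the groups separate, as they did upward in 0.774% and downward in 0.734% of tested probe sets. The 5 members with the smallest p were Psmb6 at -0.13 (SE 0.12), Psmd6 at 0.13 (SE 0.15), Psmb4 at -0.10 (SE 0.12), Psmb5 at -0.05 (SE 0.07) and Psmb2 at 0.10 (SE 0.14).

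Psmb6 was 10.32, 10.31, 10.34 and 10.29 in the arrays labelled KO 18, 5, 6 and 9, against 10.54, 10.45, 10.27 and 10.50 in those labelled WT 12, 2, 23 and 24. Psmd6 was 10.15, 10.02, 10.48 and 10.53 in those labelled KO, against 10.22, 10.13, 10.18 and 10.14 in those labelled WT. Its high values were those of arrays 6 and 9, which are labelled KO and lie above 11 for Ppp3cb. Psmb4 was 11.59, 11.54, 11.56 and 11.35 in arrays labelled KO, against 11.62, 11.65, 11.55 and 11.61 in arrays labelled WT.

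Psmb5 was 12.27, 12.34, 12.28 and 12.31 in arrays labelled KO, against 12.42, 12.30, 12.38 and 12.32 in arrays labelled WT. Psmb2 was 11.42, 11.47, 11.45 and 11.43 in arrays labelled KO, against 11.35, 11.15, 11.59 and 11.27 in arrays labelled WT. The spread of the members in this line was small, with median SDs of 0.05 in arrays labelled KO and 0.10 in arrays labelled WT (n = 4 each), where all tested probe sets had 0.11 and 0.14.

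Grouped by Ppp3cb value, the line again had no called proteasome gene, while 89 of 15252 tested probe sets (0.584%) were called. No member reached an unadjusted p under 0.05, where 13.7% of tested probe sets did. Without animal 414, whose spread enters the same fit, Psmb7, Psmc5, Psmd1 and Psmd6 had an unadjusted p of 0.028 to 0.048 and an adjusted p of 0.297 to 0.339. The share of all tested probe sets in that fit is not given here, so these genes are not read as a result about the members. The arrays with Ppp3cb below 11 had the higher mean in 13 of 37 members and 53.5% of all tested probe sets, and the medians were -0.01 and 0.01. That direction depends on the scaling: with the quantile normalization repeated, 21 of 37 members were higher below 11 and their median was 0.0245. The 3 immune subunits were all higher below 11, by 0.22 for Psmb8 (SE 0.13), 0.18 for Psmb9 (SE 0.11) and 0.17 for Psmb10 (SE 0.12), with adjusted p from 0.455 to 0.53. The 3 constitutive catalytic subunits had a median of -0.05 and were all lower, 2 of 3 with the quantile normalization repeated or the arrays centred on their median, while the immune subunits were all higher under both. Among the members Psmb7 had the smallest p, at -0.17 (SE 0.09, adjusted p = 0.414).

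Psmb8 was 7.11, 7.18, 7.08 and 7.57 in arrays 18, 5, 23 and 24 with Ppp3cb below 11, against 7.43, 6.79, 7.09 and 6.73 in arrays 6, 9, 12 and 2 above it. Psmb9 was 8.52, 8.47, 8.47 and 8.74 below 11, against 8.58, 8.24, 8.50 and 8.16 above it. Psmb10 was 8.51, 8.57, 8.69 and 8.96 below 11, against 8.79, 8.50, 8.52 and 8.22 above it. The same arrays were at the ends for all 3 genes: array 24 was the highest, array 6 was second, and array 2 was the lowest.

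Among interferon-response genes, B2m, the light chain of class I molecules, was 11.84, 11.72, 11.66 and 12.08 in arrays 18, 5, 23 and 24, against 12.28, 11.68, 12.02 and 11.25 in arrays 6, 9, 12 and 2. Gbp3, an interferon-induced GTPase, was 6.63, 6.54, 6.47 and 7.45 below 11, against 7.48, 6.35, 7.13 and 6.71 above it. Both genes were highest in arrays 6 and 24, and the lowest was array 2 for B2m and array 9 for Gbp3. Gbp7, Irgm1 and Tap1 were also highest in arrays 6 and 24. Other genes of interferon response and antigen presentation were not: Irf1 was highest in array 2, Nlrc5 in array 18 and Tapbp in array 23. Over the 11 tested interferon and antigen genes the summed linear signal ran from 7645 to 8986 below 11 and from 6449 to 10040 above it. B2m, the gene with the highest values, weighs most in that sum. Of the genes, 7 of 11 had a higher mean below 11. Macrophage markers summed to 2020 to 3865 below 11 and 2531 to 3625 above it, and lymphocyte markers to 604.8 to 675.4 and 594.6 to 622.8. The part of these cells in the immune subunit values was not tested.

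Psmb7 was 11.22, 11.14, 11.04 and 11.14 in arrays 18, 5, 23 and 24 with Ppp3cb below 11, against 11.22, 11.32, 11.39 and 11.30 in arrays 6, 9, 12 and 2 above it. Psmd2 was 11.81, 11.80, 11.75 and 11.86 below 11, against 11.88, 11.87, 11.87 and 11.88 above it. Psmc5 was 9.06, 8.83, 8.89 and 9.09 below 11, against 9.09, 9.19, 9.24 and 9.12 above it. These 3 were the members whose groups did not overlap, all lower below 11, where 5.58% of tested probe sets were separated downward and 6.58% upward. The separations were narrow. The highest value below 11 and the lowest above it were 11.2152 and 11.2168 for Psmb7. For Psmd2 they were 11.8639 and 11.8693, and for Psmc5 9.0859 and 9.0867.

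The 5 members with the smallest p were Psmb7, Psma3, Psmb8, Psmd1 and Psmb9, with Psma3 at -0.25 (SE 0.15) and Psmd1 at -0.15 (SE 0.09). Psma3 was 11.37, 11.16, 10.92 and 11.32 below 11, against 11.23, 11.28, 11.51 and 11.74 above it. Psmd1 was 11.99, 11.86, 11.88 and 11.85 below 11, against 12.00, 11.96, 12.13 and 12.09 above it. Both pairs of groups overlap. Of the 17 regulatory subunits without chaperones 14 were lower below 11, with a median of -0.04, against 8 with a median of 0.01 once the quantile normalization was repeated.

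Pomp was 9.69, 9.64, 9.77 and 9.38 in arrays 18, 5, 23 and 24, against 9.48, 9.11, 9.10 and 8.93 in arrays 6, 9, 12 and 2, a log2 difference of 0.47 (SE 0.14, adjusted p = 0.179) that is larger than that of any member and not called. The subunits of the interferon-induced activator differed in sign: Psme1 had 0.21 (SE 0.11) and Psme2 -0.23 (SE 0.10), with adjusted p of 0.395 and 0.334. Trim63 was 9.47, 9.85, 9.38 and 9.60 below 11, against 10.17, 9.89, 9.72 and 10.15 above it, a difference of -0.41 (SE 0.23, adjusted p = 0.443). Fbxo32 was 11.36, 11.07, 10.97 and 10.95 below 11, against 11.93, 11.36, 11.09 and 11.97 above it, a difference of -0.50 (SE 0.26, adjusted p = 0.402). Differences were below 0 in 12 of 13 ubiquitin, E1, E2 and p97 genes, 10 of 13 activators and associated proteins and 2 of 8 assembly chaperones, and none was called. They were also below 0 in 9 of 13 E3 ligases and 8 of 13 regulators, against 7098 of 15252 tested probe sets. These lists were not rerun with the quantile normalization repeated, under which the direction of the members turned.

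Immune against constitutive catalytic subunits were compared as the log2 difference of the pair that shares a place in the core, within each array. The level of such a difference depends on the probes, so that it is compared between groups only. Psmb9 minus Psmb6 averaged -1.45 ± 0.43 in Ppp3r1 KO and -1.52 ± 0.20 in Ppp3r1 WT muscle (SD, n = 4 each), a difference of 0.07. Psmb8 minus Psmb5 differed by 0.12 and Psmb10 minus Psmb7 by 0.01. Each of the 3 had an adjusted p of 0.943 in an exact permutation test (two-sided), which with groups of 4 cannot give a p below 0.0286. Animal 414 had the lowest Psmb9 minus Psmb6, at -2.03. Without it the differences were 0.26 for Psmb9 minus Psmb6, 0.20 for Psmb8 minus Psmb5 and 0.09 for Psmb10 minus Psmb7, and none passed.

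By label in the Ppp3cb line the 3 pairs differed by 0.06, 0.11 and -0.01, each with an adjusted exact p of 0.971. By Ppp3cb value all 3 were higher below 11, by 0.22 for Psmb8 minus Psmb5, 0.23 for Psmb9 minus Psmb6 and 0.35 for Psmb10 minus Psmb7. Psmb10 minus Psmb7 averaged -2.45 ± 0.23 below 11 and -2.80 ± 0.27 above it (SD, n = 4 each), with an exact permutation p of 0.114 and 0.214 after adjustment over the 3 pairs. The adjusted values of the other pairs were 0.314 and 0.214, and none passed.

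**Figure D4:**
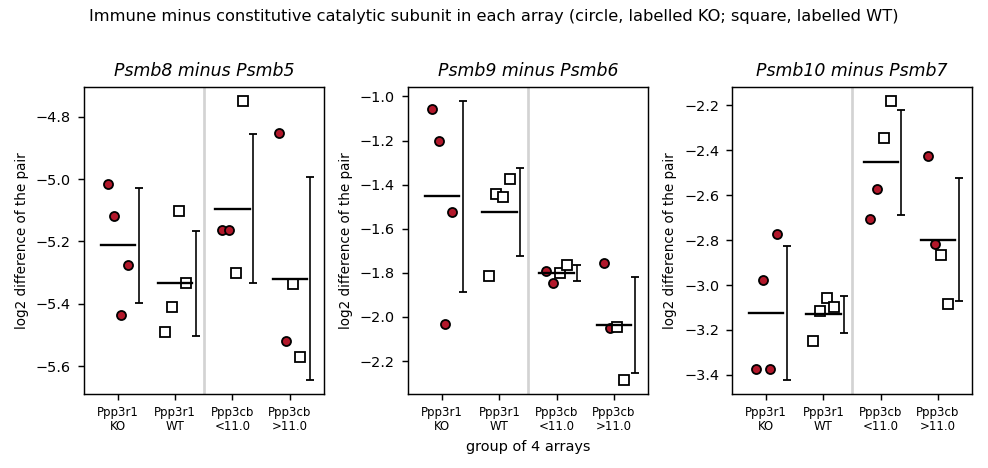
Log2 difference between an immune catalytic subunit and the constitutive one it replaces, 1 point per array, for the Ppp3r1 KO and WT groups and for the Ppp3cb line grouped by Ppp3cb value below and above 11; circles are arrays labelled KO, squares arrays labelled WT, bars the mean and SD of 4. The groups overlap in each panel, and the lowest Ppp3r1 KO point for Psmb9 minus Psmb6 is animal 414.

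The difference of the KO effects, Ppp3r1 line minus labelled Ppp3cb line, was called for no member and for 0 of 15252 tested probe sets (0%), with 810 of them (5.31%) at an unadjusted p under 0.05. It was above 0 in 32 of 37 members and 50.6% of tested probe sets, with a median of 0.16 for the members. Without animal 414 it was above 0 in 19 members, with a median of 0.01, against 47.6% of tested probe sets with a median of -0.011. The smallest p was that of Psmb4 at 0.33 (SE 0.17, adjusted p = 0.821), followed by Psmb3 at 0.25, Psmd2 at 0.28, Psmc6 at 0.33 and Psma7 at 0.38. Without animal 414 these were 0.16 for Psmb4, 0.09 for Psmb3, 0.08 for Psmd2, 0.11 for Psmc6 and 0.10 for Psma7.

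Between the WT groups the proteasome genes were lower in the Ppp3r1 line. The mean of 33 of 37 members was lower in Ppp3r1 WT than in the arrays labelled Ppp3cb WT, of which 23 and 24 have Ppp3cb below 11, where 61.5% of all tested probe sets were, with medians of -0.24 and -0.10. After the quantile normalization was repeated over all arrays the count was 31 and the median -0.16. Psmb10 averaged 7.95 ± 0.06 in Ppp3r1 WT and 8.60 ± 0.31 in the arrays labelled Ppp3cb WT (SD, n = 4 each). These levels were not tested, because line and array set cannot be told apart.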

How the data were processed

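Expression was measured on 16 Affymetrix Mouse Gene 1.0 arrays, 4 in each of 4 groups taken from the labels. Per the submitters' processing notes, the log2 table that the authors deposited comes from GCOS 1.0 and RMA. Joint normalization of the lines is not stated in the sources used here. The ratio columns that were deposited beside it are each linear value over its line's median and were used only to check the log2 values. Another deposited log2 table differed in 0 values, and all 48 value columns were matched to samples by name.

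Gene symbols came from the platform annotation. It gave 1 symbol to 21789 of 35557 probe sets, several to 1621, and 12147 were not listed. The 15252 single-symbol probe sets (13919 genes) with a mean at or above the 30th percentile, 6.18, were tested. A limma 3.58.1 model (R 4.3.3) with 1 mean per group and an intensity trend used all arrays, leaving 12 residual degrees of freedom, so each SE draws on the spread in every group. P-values were Benjamini-Hochberg adjusted over all tested probe sets and called under 0.05. The split at a Ppp3cb value of 11 had a fit of the same form. Pairs of subunits were compared by exact permutation. The functions were tested on simulated data.

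The members and gene lists were chosen with earlier results of these data known. Values per array are given for the 6 catalytic subunits and the 5 members with the smallest p per comparison, and up to 4 genes per list. Psmc4, Psmc5, Psmd3, Psmd4, Psmd5, Psmd11, Psmd14, Nfe2l1 and Nfe2l2 were singled out after their values were seen. So were Gbp7, Irf1, Irgm1, Nlrc5, Tap1 and Tapbp. Alternatives covered the filter, normalization, samples in the fit, array weights, variance prior, probe set choice, a block for animal number series, and each array left out in turn.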

Additional observations from a re-analysis of the deposited data

Results flagged for a closer look

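Within each group of 4 arrays, the gap of the highest or lowest array to its neighbour was divided by the group's range and set against Dixon's critical value. Chance alone passes about 1 in 20 groups. Of 156 groups checked, 4 for each member, 11 passed. In 6 of them animal 414 was far above the other Ppp3r1 KO animals: Psmc3 at 0.936, Psmc4 at 0.912, Psmc2 at 0.886 and Psmd12 at 0.882, then Psmb1 at 0.867 and Psmd1 at 0.835. The same was seen in 1.11% of all tested probe sets.

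The other 5 were single low arrays. Animal 336 was low for Psmd4 (0.89), animal 413 for Psmb5 (0.87) and animal 334 for Psmb9 (0.834), all among Ppp3r1 WT arrays. In the Ppp3cb line the array labelled KO 18 was low for Psmc1 (0.878), and the array labelled WT 23 was low for Psmd2 (0.847).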

How the results depend on the processing

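No member was called in any of the 4 comparisons under any alternative run. The number of called probe sets among all tested moved. For Ppp3cb below against above 11 it was 89, and between 36 (without array 6) and 544 (with array weights) under the alternatives. For Ppp3r1 KO minus WT it was 1, and between 0 and 12 (without KO animal 416). For the labels of the Ppp3cb line it was 0, and 14 once the 4 arrays whose Ppp3cb value opposes the label were left out. That last setting gave a median of -0.046 over the members and turned Psmd6 to -0.0916. Centring each array on its median gave 9 members above 0 by label, with a median of -0.0279. Repeating the quantile normalization gave 21 members above 0 and a median of 0.0245 for the split at 11, and turned Psmb10 minus Psmb7 in the Ppp3r1 line to -0.0056. The causes were not tested.

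With each array left out in turn, 15 to 34 members were above 0 in the Ppp3r1 line, with medians of -0.0229 to 0.193, and 19 to 34 for the difference of the KO effects, with medians of 0.01 to 0.209. The low ends are without animal 414. The median ran from -0.0286 to 0.0115 by label in the Ppp3cb line and from -0.0402 to -0.0112 by Ppp3cb value. Psmb10 minus Psmb7 ran from -0.166 to 0.134 by label and from -0.112 to 0.0884 in the Ppp3r1 line, Psmb8 minus Psmb5 from -0.0454 to 0.228 by label, and Psmb9 minus Psmb6 from -0.0628 to 0.262 in the Ppp3r1 line. No paired analysis was possible because the labels give the groups no shared numbers. With a block for animal number series, 33 members of the Ppp3r1 line were above 0 and 0 were called. With 4 arrays a group, small differences cannot be told from the spread between mice.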
